A study of Homo sapiens with 5 samples.

Results

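The genes described here are 10 components of the machinery that writes, removes and reads N6-methyladenosine (m6A) in nuclear RNA. They are the methyltransferase genes METTL3 and METTL14, the regulatory subunit genes WTAP, VIRMA, ZC3H13, RBM15 and RBM15B, the nuclear reader gene YTHDC1, and the demethylase genes ALKBH5 and FTO. They were picked by gene symbol from the expression table of the series, and all 10 had a row among its 13822 genes. RH4 cells, an established line of alveolar rhabdomyosarcoma, a soft tissue tumour with features of skeletal muscle, were transfected with 30 nM siRNA and Dharmafect-1. The control group, si-SCR, received a non-targeting siRNA (n = 3), and the si-circVAMP3 group received an siRNA against circVAMP3, a circular RNA made from the VAMP3 gene (n = 2). RNA came from whole cell lysates in both groups. The times were 24 h from transfection to the medium change and 24 h from that change to collection. The comparison asks how the transcripts of RH4 cells differ after circVAMP3 knock-down. A single cell line, a single siRNA against the target and 2 treated cultures limit what the groups can stand for.

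Poly-A RNA was sequenced with a stranded protocol, and levels are given as FPKM, fragment counts scaled by the exon length of the gene and a library size per sample. In 3 samples that size was below the reads recovered in the listed genes alone (at the lowest 0.995 times them), so it was an adjusted size and not the plain number of fragments counted. The reads behind these values could be recovered as whole numbers, within 0.0005, for 100% of the 13822 genes, 98.1% with a whole exon length at the first step, but those of some genes may be too small by a common factor. Of 13783 genes with exons in GENCODE v44, 69.0% had a recovered length equal to them. The 3 si-SCR samples held 26441490, 25046768 and 24934487 reads in the listed genes, and the 2 si-circVAMP3 samples held 18625463 and 28818756. Among the 10 members the lowest number of reads in a sample was 454, for METTL14 in si-circVAMP3 replicate 1, and the highest was 7220, for WTAP in si-circVAMP3 replicate 2.

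As background, a METTL3 and METTL14 heterodimer adds the methyl group to adenosines of nascent transcripts, with METTL3 as the catalytic subunit. WTAP, VIRMA, ZC3H13 and the paralogous proteins RBM15 and RBM15B place that heterodimer on its RNA substrates. YTHDC1 binds the mark in the nucleus and takes part in splicing, export and back-splicing, while ALKBH5 and FTO are dioxygenases that take methyl groups off again.

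The siRNA is shown first because its letters define what was targeted. The study lists 1 strand of 21 letters, of which the last 2 are an overhang. The other 19 letters were found in VAMP3 across a back-splice junction, the end of exon 4 joined to the start of exon 3, and they are the capitals of the junction printed here. The exon 4 part lies on chromosome 1 at chr1:7778155-7778169 and the exon 3 part at chr1:7777160-7777174, both on the plus strand of GRCh38, within the coding exons of the canonical transcript in GENCODE v44. In the antisense strand, which pairs with the target, capitals mark positions 2 to 8, the seed.
si-circVAMP3 siRNA, strand as listed: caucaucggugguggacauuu
Antisense strand, written with T: aTGTCCACcaccgatgatg
VAMP3 exon 4 to exon 3 junction: tcatcatCATCATCGGTGGTGGACATaatg

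VAMP3, which encodes a vesicle-fusion protein of the SNARE family, was the first gene examined because its row carries the targeted locus. Its FPKM was 36.4, 35.4 and 37.4 in the si-SCR samples and 29.4 and 30.2 in the si-circVAMP3 samples. Both si-circVAMP3 samples lay below all 3 si-SCR samples. The log2 difference was -0.29 (95% interval -0.39 to -0.18, adjusted p = 0.0051), and the mean was 18.2% lower. Without si-circVAMP3 replicate 1 the adjusted p was 0.0511, within a range of 0.00261 to 0.0511 over all 15 alternatives. The row counts poly-A RNA of the whole gene. It does not measure the circular RNA, which has no poly-A tail, and so does not check the knock-down itself. The longest run of the 19 letters found in the linear transcript was 12 letters.

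Marker genes were read next. All 9 alveolar rhabdomyosarcoma markers had a row, and their summed FPKM was 996, 982 and 848 in si-SCR and 813 and 827 in si-circVAMP3. DES, encoding the muscle filament desmin, was the most abundant, at 248 to 291 FPKM. MYOG, encoding the muscle transcription factor myogenin, stood at 175, 179 and 149 FPKM in si-SCR and at 101 and 96.6 FPKM in si-circVAMP3. The ranges did not overlap, and the log2 difference was -0.76 (adjusted p = 0.00161). FOXO1 was the other marker called (log2 difference -0.28, adjusted p = 0.0239, 0.0126 to 0.152 over the alternatives), and its call was lost without si-SCR replicate 2 or either si-circVAMP3 sample. Replicate 3 had the lowest sum of the si-SCR samples, and without it DES and FGFR4 were called (adjusted p = 0.0272 and 0.00374). With all samples these were 0.342 and 0.0995, and without si-SCR replicate 2 they were 0.602 and 0.232. FGFR4 was called with a replicate block too (0.0165), but that fit is no separate check. Replicate 3 has no same-numbered partner in it, and the FGFR4 difference was -0.37 in both fits. MYOD1, the other muscle transcription factor gene of the list, went the opposite way without a call, at 115, 105 and 84.3 FPKM in si-SCR and 106 and 127 FPKM in si-circVAMP3. These ranges overlapped (log2 difference 0.20, or 0.07 to 0.33 with 1 sample left out, adjusted p = 0.316). None of the 4 epithelial and 4 leukocyte markers was among the rows. Of 4 endothelial markers PECAM1 was listed, at 0.0777 to 0.153 FPKM, and of 5 fibroblast markers 4 were listed, with DCN at 0.545 to 0.813 FPKM. These summed to 35.5, 32.8 and 33.3 FPKM in si-SCR and to 31.1 and 28.6 FPKM in si-circVAMP3, which did not overlap. Nearly all of each sum was COL3A1. The groups of DCN, PDGFRA (0.757 to 0.882 FPKM) and COL1A1 (0.127 to 0.233 FPKM) overlapped. The most abundant, COL3A1, singled out after its values were seen, had a log2 difference of -0.18 (95% interval -0.32 to -0.05, adjusted p = 0.0525, 0.0251 to 0.287 over the alternatives) and was called with a replicate block and by voom only. The part of the MYOG shift in the results for the m6A genes was not tested, and in bulk RNA a change in the share of a cell state cannot be told apart from a change in RNA per cell.

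Across the transcriptome 3737 of 12423 tested genes (30.1%) were called at an adjusted p below 0.05. Of these, 1774 (14.3%) were higher and 1963 (15.8%) lower in si-circVAMP3. Centring each sample on its median turned this balance, to 2014 higher and 1737 lower. The members gave 4 calls among 10 genes, 2 higher (WTAP and RBM15) and 2 lower (METTL14 and FTO). That share is near the one over all genes, so the count alone sets the members apart in no way. Their median log2 difference was -0.01 beside 0.01 over all tested genes, and the median of the absolute differences was 0.12 beside 0.17. With an absolute log2 difference above 0.58 required as well, 717 genes (5.77%) were called, and FTO was the single member among them. The number of genes called moved strongly with the samples used: it was 3064, 2180 and 4014 without si-SCR replicates 1, 2 and 3, and 1304 and 1274 without si-circVAMP3 replicates 1 and 2. The members called in those fits numbered 2, 1, 4, 1 and 1, and FTO was among them each time.

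**Figure D1:**
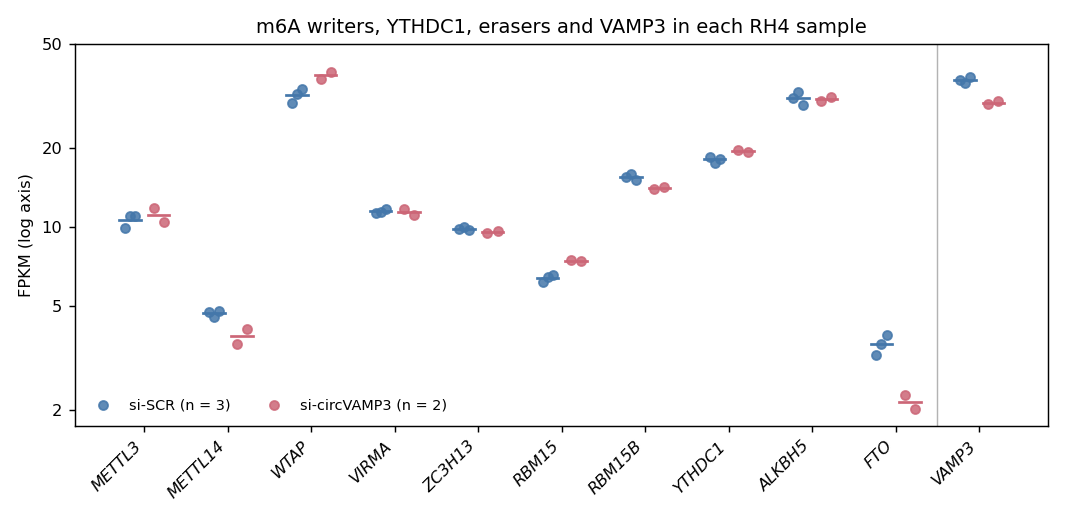
FPKM of the 10 members and VAMP3 on a log axis, with 1 point per RH4 sample and a bar at the group mean (si-SCR, n = 3, and si-circVAMP3, n = 2). FTO shows the widest gap between groups among the members, and the points of METTL3, VIRMA and ALKBH5 interleave.

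In the catalytic core METTL14 was called and METTL3 was not, and the difference between them was not tested. METTL14 (ENSG00000145388, chr4:118685392-118715433, plus strand), the RNA-binding partner of the heterodimer, stood at 4.72, 4.52 and 4.78 FPKM in si-SCR and at 3.58 and 4.08 FPKM in si-circVAMP3. Both knock-down samples were below every control, and replicate 1 was the lower of them. The log2 difference was -0.28 with a standard error of 0.08 (95% interval -0.47 to -0.10, adjusted p = 0.0357), a mean 18.1% lower. This call was lost when any 1 of the 5 samples was left out, with adjusted p between 0.0536 and 0.211, and the difference then ran from -0.37 to -0.19. Over all 15 alternatives the adjusted p ran from 0.0225 to 0.211, and quantile normalization gave 0.0503.

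METTL3 (chr14:21498133-21511342, minus strand) had 9.88, 11.0 and 11.0 FPKM in si-SCR and 11.8 and 10.4 FPKM in si-circVAMP3. The ranges overlapped. Its log2 difference was 0.06 (95% interval -0.13 to 0.25, adjusted p = 0.585), so a change of more than 0.25 in either direction lay outside the interval. Without si-circVAMP3 replicate 1 the sign turned, to -0.03.

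Among the regulatory subunits WTAP and RBM15 rose. WTAP (ENSG00000146457, chr6:159725585-159756319, plus strand), which anchors the complex in nuclear speckles, had 29.7, 32.2 and 33.7 FPKM in si-SCR and 36.7 and 39.1 FPKM in si-circVAMP3. The groups did not overlap, although the gap between them was smaller than the range of the controls. The mean was 1.19 times the control mean (log2 difference 0.25, standard error 0.06, 95% interval 0.10 to 0.40, adjusted p = 0.0267). The adjusted p was 0.0729 without si-SCR replicate 2, 0.0814 without si-circVAMP3 replicate 1 and 0.167 without si-circVAMP3 replicate 2, in a range of 0.0108 to 0.167 over the alternatives.

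RBM15 (ENSG00000162775, chr1:110338506-110346681, plus strand), an RNA-binding subunit that recruits the complex to uridine-rich stretches, had 6.18, 6.41 and 6.58 FPKM in si-SCR and 7.46 and 7.41 FPKM in si-circVAMP3. Both knock-down samples exceeded all controls. The log2 difference was 0.22 (standard error 0.06, 95% interval 0.08 to 0.35, adjusted p = 0.0311). The call was lost without si-SCR replicate 1 (0.0734), si-SCR replicate 2 (0.0899), si-circVAMP3 replicate 1 (0.153) or si-circVAMP3 replicate 2 (0.136), and adjusted p ran from 0.0236 to 0.153 over the alternatives.

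Its paralogue RBM15B (chr3:51391285-51397908, plus strand) had 15.5, 15.9 and 15.1 FPKM in si-SCR and 14.0 and 14.2 FPKM in si-circVAMP3. These ranges were also apart, in the opposite direction. The difference of -0.13 (95% interval -0.25 to -0.02) had an adjusted p of 0.0729 and was not called. It passed the threshold without si-SCR replicate 3 (0.0454) and in a fit to the recovered reads, and over the alternatives the adjusted p ran from 0.0454 to 0.274.

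VIRMA, a scaffold of the complex, stood between 11.1 and 11.7 FPKM in all 5 samples, with overlapping groups and a log2 difference of -0.01 (95% interval -0.13 to 0.11, adjusted p = 0.905). ZC3H13 (chr13:45954465-46052759, minus strand), a zinc-finger subunit that keeps the complex nuclear, had 9.70 to 10.0 FPKM in si-SCR and 9.47 and 9.61 FPKM in si-circVAMP3. Those ranges were apart by a small margin, and the log2 difference of -0.04 (95% interval -0.16 to 0.07, adjusted p = 0.541) was not called.

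YTHDC1 (chr4:68310387-68350090, minus strand), the nuclear reader, had 18.5, 17.6 and 18.2 FPKM in si-SCR and 19.6 and 19.3 FPKM in si-circVAMP3. The knock-down samples lay above the controls. The log2 difference of 0.10 (95% interval -0.01 to 0.21) had an adjusted p of 0.14, was not called, and remained without a call in all 15 alternatives.

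Of the erasers FTO fell and ALKBH5 was not called. FTO (ENSG00000140718, chr16:53701692-54158512, plus strand), a dioxygenase that acts on m6A and on the cap-adjacent mark m6Am, had 3.24, 3.56 and 3.88 FPKM in si-SCR and 2.27 and 2.02 FPKM in si-circVAMP3. Both knock-down samples were well below every control. The mean was 39.8% lower, with a log2 difference of -0.70 (standard error 0.10, 95% interval -0.95 to -0.46, adjusted p = 0.00429). The call held in all 15 alternatives, with adjusted p from 0.000343 to 0.0443 and differences from -0.78 to -0.53. The reads behind it numbered 1850, 1903 and 2070 in si-SCR and 899 and 1246 in si-circVAMP3. A gene model with the type TEC, still to be tested by experiment, lies inside FTO on the same strand in GENCODE v44, and no other member had a same-strand neighbour overlapping it.

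ALKBH5 (chr17:18183078-18209954, plus strand), the other m6A demethylase, had 31.0, 32.9 and 29.2 FPKM in si-SCR and 30.4 and 31.5 FPKM in si-circVAMP3. The groups overlapped fully. The log2 difference was 0.00 (95% interval -0.14 to 0.14, adjusted p = 0.977). Whether the FTO and ALKBH5 differences differ from each other was not tested.

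**Figure D2:**
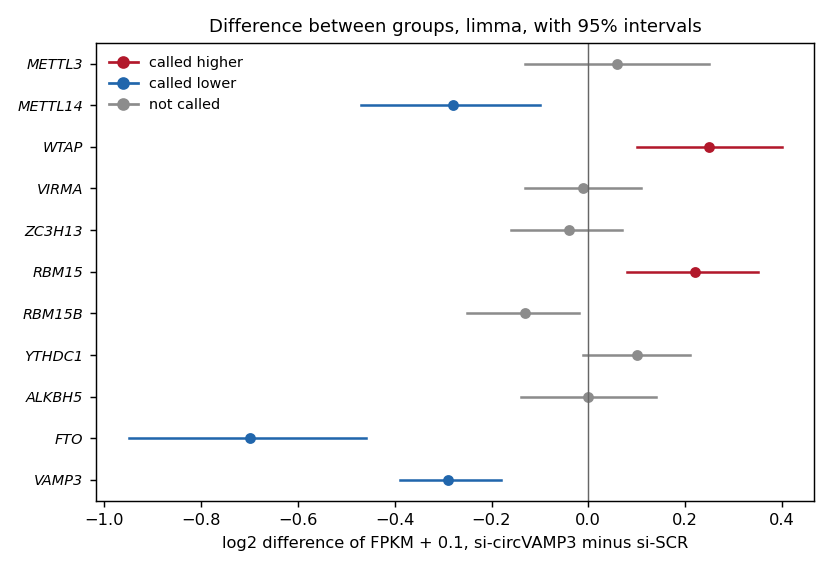
Log2 difference of FPKM + 0.1 between si-circVAMP3 and si-SCR for the members and VAMP3, with 95% intervals from limma; colour marks genes called at an adjusted p below 0.05. FTO sits at -0.70, and METTL14 and VAMP3 sit at -0.28 and -0.29.

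Counting overlap in place of a test, 7 of the 10 members (70%) had groups that did not overlap, beside 58.4% of all tested genes and the 30.1% called. The exceptions were METTL3, VIRMA and ALKBH5.

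Transcript levels of the members can be set side by side on the FPKM scale, which divides by exon length. In si-SCR the mean levels in FPKM, from high to low, were WTAP (31.9), ALKBH5 (31.0), YTHDC1 (18.1), RBM15B (15.5), VIRMA (11.5), METTL3 (10.6), ZC3H13 (9.84), RBM15 (6.39), METTL14 (4.68) and FTO (3.56). The ranges of WTAP and ALKBH5 overlapped, as did those of METTL3 and ZC3H13, and all other neighbours in this order were apart. The order depends on the length used. The deposited values divide by all annotated exons of a gene, 21379 bases for FTO and 5861 for METTL3, where the canonical transcripts hold 11573 and 1980 bases. Dividing by canonical transcript length instead gave 97.1 for WTAP, 35.4 for ALKBH5, 31.4 for METTL3, 8.85 for RBM15, 6.58 for FTO and 4.81 for METTL14. METTL3 then ranked above YTHDC1 (20.5), VIRMA (19.1) and RBM15B (15.5), VIRMA above RBM15B, and FTO above METTL14, with no overlap between neighbours. Ratios of FPKM between groups do not depend on the length, whereas log2 differences with a pseudocount can.

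Ratios of FPKM within a sample describe how the balance of the members moved, with no test. The ratio of METTL3 to METTL14 was 2.09, 2.42 and 2.30 in si-SCR and 3.30 and 2.55 in si-circVAMP3. All knock-down values were above the controls, and the ratio of means was 1.29, but it was 1.12 without si-circVAMP3 replicate 1 and 1.45 without si-circVAMP3 replicate 2. The ratio of RBM15 to RBM15B was 0.398, 0.403 and 0.436 in si-SCR and 0.534 and 0.520 in si-circVAMP3, again without overlap. METTL3 to WTAP stood at 0.332, 0.341 and 0.327 in si-SCR and at 0.322 and 0.266 in si-circVAMP3, where the higher knock-down value lay just under the controls. The ratio of ALKBH5 to FTO was 9.56, 9.23 and 7.53 in si-SCR and 13.4 and 15.5 in si-circVAMP3, 1.65 times as high on average. This followed FTO, as ALKBH5 itself differed by less than the spread between replicates.

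**Figure D3:**
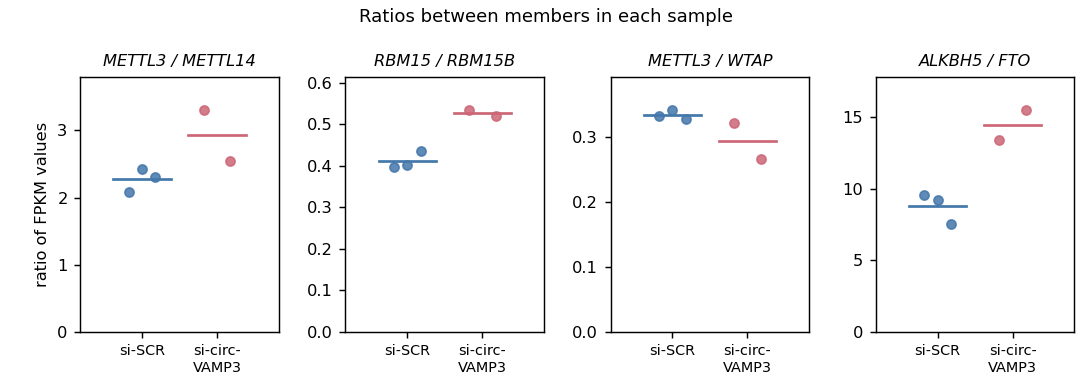
Ratio of FPKM values of member pairs in each sample, with axes starting at 0 and a bar at the group mean (si-SCR in blue, n = 3; si-circVAMP3 in red, n = 2). The ALKBH5 to FTO ratio is 7.53 to 9.56 in si-SCR and 13.4 and 15.5 in si-circVAMP3.

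The wider pathway was read from 5 lists with 33 genes, all of which were tested. In these lists 13 genes were called, 8 higher and 5 lower, or 39.4% beside 30.1% over all genes, and the median log2 difference was 0.05 beside 0.01. Without si-SCR replicates 1, 2 and 3 the lists gave 7, 7 and 13 calls. In those fits 24.8%, 17.6% and 32.5% of all tested genes were called. METTL5, TRMT112, IGF2BP2 and MAT2B were called in every fit that left out 1 sample.

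Of the 7 other RNA adenosine methyltransferase genes, 2 rose and 1 fell, or 42.9% called beside 30.1% over all genes. METTL5, which methylates 18S rRNA, had 10.5, 10.5 and 10.3 FPKM in si-SCR and 5.80 and 6.12 FPKM in si-circVAMP3. The groups were far apart, with a log2 difference of -0.80 (95% interval -0.92 to -0.67, adjusted p = 0.000373). TRMT112, encoding the partner that stabilises METTL5, moved the opposite way, from 81.4, 82.5 and 84.8 FPKM to 101 and 105 FPKM (log2 difference 0.31, adjusted p = 0.00297). METTL16, the methyltransferase of U6 snRNA and MAT2A mRNA, had a log2 difference of 0.19 (adjusted p = 0.0424, 0.0239 to 0.179 over the alternatives), which kept its call in 1 of the 5 fits that left out a sample. CBLL1, a further subunit of the METTL3 complex, was at 0.04, METTL4 at 0.04, ZCCHC4 at 0.09 and PCIF1, the cap methyltransferase, at 0.15, none of them called. With 1 sample left out METTL4 ran from 0.01 to 0.06 and ZCCHC4 from 0.04 to 0.14. PCIF1 was called without si-SCR replicate 2 (adjusted p = 0.0458, up to 0.36 over the alternatives).

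Of the 7 cytoplasmic readers, 2 rose and 2 fell. IGF2BP2, an mRNA-stabilising reader, had 27.4, 27.2 and 29.4 FPKM in si-SCR and 15.4 and 14.7 FPKM in si-circVAMP3. These groups were far apart, the mean was 46.3% lower, and the log2 difference was -0.89 (95% interval -1.02 to -0.76, adjusted p = 0.000251). Its relative IGF2BP3 had a log2 difference of -0.35 (adjusted p = 0.00759) and IGF2BP1 one of -0.17 (adjusted p = 0.0732). YTHDF1 (0.19, adjusted p = 0.0412) and YTHDF2 (0.20, adjusted p = 0.0171) were called higher, YTHDF3 was at 0.18 (adjusted p = 0.059), and YTHDC2 was at -0.21 (adjusted p = 0.158), or -0.33 to -0.10 with 1 sample left out. Without either si-circVAMP3 sample the calls of IGF2BP3, YTHDF1 and YTHDF2 were lost, with adjusted p of up to 0.059, 0.193 and 0.12, and that of YTHDF1 was lost in 8 of the 15 alternatives, among them those without si-SCR replicates 1 or 2, quantile normalization and the fit without a trend. All 7 readers had groups that did not overlap, beside 58.4% of all tested genes and the 30.1% called. YTHDF3 was called without si-SCR replicate 3 (0.0448) and by voom (0.0395), and IGF2BP1 without si-SCR replicate 1 (0.045) and by voom (0.0286), in ranges of adjusted p up to 0.245 and 0.334 over the alternatives.

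In the nuclear group of 6 RNA-binding proteins RBMX (0.12, adjusted p = 0.0499) and the export receptor gene NXF1 (0.19, adjusted p = 0.0225) were called higher. HNRNPA2B1 (-0.02), HNRNPC (0.04) and the YTHDC1 partner genes SRSF3 (0.06) and SRSF10 (0.10) were not called. Of 6 genes listed around the supply and use of S-adenosylmethionine, the methyl donor, 2 rose and 2 fell. These shares, 33.3% of the nuclear group and 66.7% of the donor group, stand beside 30.1% called over all genes. MAT2B, the regulatory subunit of the synthetase, went from 8.01, 7.57 and 8.17 FPKM to 11.3 and 11.0 FPKM, with groups well apart (log2 difference 0.49, adjusted p = 0.00207). Its catalytic partner MAT2A was at -0.07 (adjusted p = 0.264). AHCY (0.15, adjusted p = 0.0227) was called higher. AHCYL1, listed only for its likeness to AHCY (-0.15, adjusted p = 0.029), and MTR (-0.23, adjusted p = 0.0349) were called lower, and MTHFD1 was at 0.05. RBMX, NXF1, AHCY and AHCYL1 were called in 1 of the 5 fits that left out a sample, the one without si-SCR replicate 3, and MTR in none, with adjusted p of up to 0.207, 0.137, 0.131, 0.14 and 0.164.

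None of the 7 other AlkB-family genes was called in the unblocked limma fit, where 30.1% of all genes were, or by voom on the recovered reads, and 1 of them, ALKBH3, had an unadjusted p under 0.05. The 4 with the highest levels were ALKBH4 (log2 difference 0.16, or 0.04 to 0.28 with 1 sample left out), ALKBH3 (-0.20, adjusted p = 0.0649, 0.0479 to 0.322 over the alternatives), ALKBH7 (0.04) and ALKBH2 (0.16). With a replicate block ALKBH3 was called (-0.21, adjusted p = 0.0479). In this enzyme family the FTO difference of -0.70 stood beside differences from -0.20 to 0.34.

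**Figure D4:**
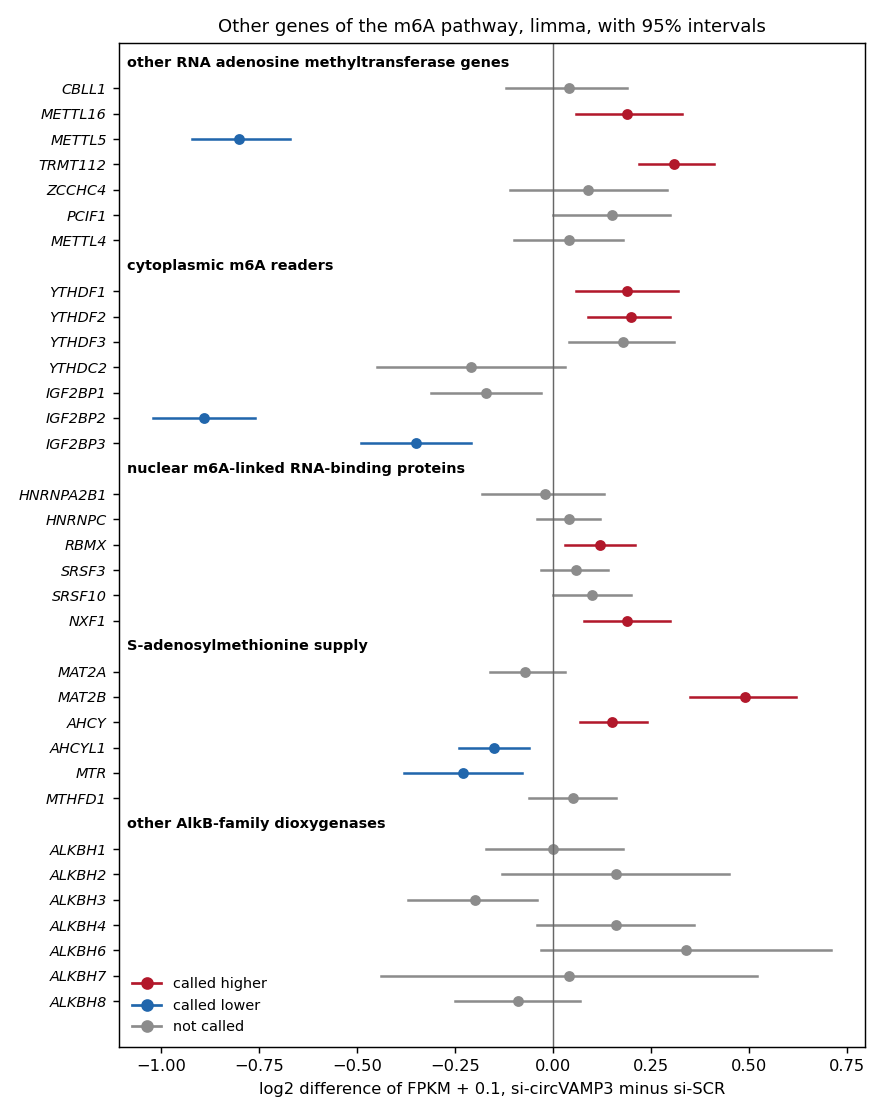
Log2 differences of FPKM + 0.1 between si-circVAMP3 and si-SCR for the 33 other pathway genes in 5 lists, with 95% intervals from limma; colour marks genes called at an adjusted p below 0.05. METTL5 and IGF2BP2 lie far to the left of the others, and MAT2B lies farthest to the right among the called genes.

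Letters complementary to the siRNA seed were then looked up in 3′UTRs, after the values had been seen. The letters searched, on the transcript strand, were GTGGACA, the complement of antisense positions 2 to 8, the same followed by A (GTGGACAA), and CGATGAT, the complement of positions 2 to 8 of the listed strand. Stretches of the canonical 3′UTRs of METTL14, IGF2BP2 and FTO are shown because these genes fell and hold such letters, which are in capitals. On GRCh38 the METTL14 stretch is at chr4:118715254-118715283 on the plus strand, in exon 11, the IGF2BP2 stretch at chr3:185643848-185643877 on the minus strand, in exon 16, and the FTO stretch at chr16:54121303-54121331 on the plus strand, in exon 9.
METTL14 3′UTR: tgtttttgaaaGTGGACAAaacctcaaagc
IGF2BP2 3′UTR: tactggtttatGTGGACAAgccattatacc
FTO 3′UTR, match to the listed strand: tgtatcaattaCGATGATaaatattatca

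The 7 letters of the antisense seed match occurred in 2 of the 10 members, beside 11.5% of all tested genes with a 3′UTR. METTL14, which fell, held 2 copies and VIRMA, which was not called, held 1 copy. WTAP and RBM15, which rose, held none in 3′UTRs of 708 and 410 bases, where the median over tested genes was 1370 bases. METTL3, ZC3H13, RBM15B, YTHDC1 and ALKBH5, which were not called, held none either. FTO held no antisense match, and its single match to the listed strand lay at base 9399 of a 3′UTR of 10026 bases. The printed METTL14 match also lay near the end, at base 4963 of a 3′UTR of 5128 bases. In 3′UTRs over 5000 bases, 6.75% of tested genes held the listed-strand letters and 33.3% held the antisense 7 letters. Among the pathway lists IGF2BP2 and HNRNPA2B1 held the antisense match, and METTL5, with a 3′UTR of 63 bases, held none.

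Across the 11039 tested genes with a canonical 3′UTR, 1274 (11.5%) held the antisense 7 letters. Their median log2 difference was -0.13, beside 0.03 for the 9765 genes without them, and 33.7% against 13.8% were called lower. For the 287 genes with the 8 letters the median was -0.25 and 44.3% were called lower. Genes with the listed-strand letters had a median of -0.02, beside 0.02 for those without them. The 3′UTRs with antisense letters were longer (median 2947 against 1234 bases), and within 3′UTRs of 1000 to 3000 bases the medians were -0.13 and 0.02. In 3′UTRs over 5000 bases, the class of METTL14 and FTO, the gap was smaller, with medians of -0.12 and -0.04 and with 29.4% against 17.6% called lower. The METTL14 difference of -0.28 stood beside a median of -0.17 for the 8-letter genes of that class and -0.05 for those without. Of these, 32.6% and 20.4% were called lower. The FTO difference of -0.70 stood beside a median of -0.05 for the listed-strand genes of the class. Genes of that class without the listed-strand letters had a median of -0.06, and 21.5% of them were called lower against 21.9% of those with the letters. In 3′UTRs of 1000 to 3000 bases, the class of IGF2BP2 (-0.89), the 108 genes with the 8 letters had a median of -0.33, and 53.7% of them were called lower, beside 16.2% of those without. A match is a description of the letters, and its part in the METTL14, IGF2BP2 and FTO results was not tested.

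**Figure D5:**
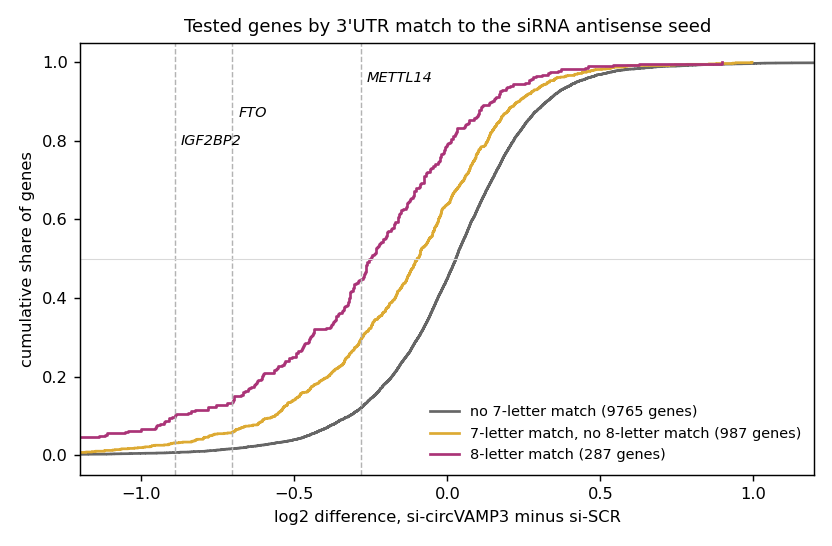
Cumulative share of tested genes (vertical) against the log2 difference between si-circVAMP3 and si-SCR (horizontal), by match of the 3′UTR to the antisense seed. The 7-letter curve holds genes with a 7-letter but no 8-letter match. It and the 8-letter curve lie to the left of the 9765 genes without a match, and dashed lines mark METTL14, FTO and IGF2BP2.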

How the data were processed

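Poly-A RNA of 5 RH4 cultures was sequenced. Per the labels and the study's methods, the authors trimmed reads with Trimmomatic, aligned them to GRCh38 with STAR 2.5.2b, counted them per gene with HTSeq using the strand, removed genes with low counts, and derived the deposited FPKM with edgeR. From those, log2(FPKM + 0.1) was tested in limma 3.58.1 (R 4.3.3; moderated test, two-sided, mean trend) over the 12423 genes with at least 0.5 FPKM in at least 2 samples, with Benjamini-Hochberg adjustment over all of them. A log2 difference understates the change of low genes. Because the deposited values are FPKM, the main test was not a count model. Of the 13822 gene IDs, 13783 matched a symbol. Reads were recovered as the smallest whole numbers with the ratios of the FPKM values (each within 0.0005 of a whole number) that give a whole exon length (within 0.02 bases), which was met at the first step for 98.1% of genes. In 160 genes they were then multiplied until the length equalled the exons of GENCODE v44. Reads of all replicate pairs differed by more than sampling noise (chi-square per degree of freedom 11.1 and 7.32 for si-SCR replicate 3 against replicates 1 and 2, 3.95 between those, and 3.58 within si-circVAMP3). Scripts were tested on simulated data.

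Named genes were the 10 members, VAMP3, each pathway gene called, and up to 4 more per list with the highest mean FPKM; markers are named besides. Pathway lists held other methyltransferases, cytoplasmic readers, nuclear RNA-binding proteins, S-adenosylmethionine supply and AlkB-family genes. Members and lists were chosen with earlier results of these data known. Alternatives were pseudocounts of 1 and 0.5, no filter, a mean FPKM of at least 1, median centring, quantile normalization, no trend, a replicate block, an added fold threshold and leaving out each sample; limma voom on the recovered reads was chosen after seeing the data. Leaving out a si-circVAMP3 sample leaves 1, which is assumed to vary like the controls. The siRNA strand came from the study's list of oligonucleotides, and transcripts, 3′UTRs and positions from GENCODE v44 on GRCh38. Coordinates are 1-based.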

Additional observations from a re-analysis of the deposited data

How the results depend on the processing

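The counts of genes called and the differences of the named genes were recomputed under 15 alternatives, 14 chosen at the start and voom on recovered reads chosen after seeing the data. The level ratios had 6, the level order had the other length, and marker sums, overlap counts and seed-match medians had none. FTO, METTL5, IGF2BP2 and MYOG kept direction and call in all 15. METTL14 lost its call in 8, WTAP in 5 and RBM15 in 6, the fold threshold among them.

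With an absolute log2 difference above 0.58 required as well, the genes called fell to 717 (203 higher, 514 lower), the members to 1, the other pathway genes to 2, and VAMP3 (-0.29) was not called. Leaving out 1 sample gave 1274 to 4014 genes called (465 to 1986 higher, 805 to 2028 lower), 1 to 4 members and 4 to 13 other pathway genes. VAMP3 then ranged from -0.31 to -0.27. The fold between groups ranged from 1.12 to 1.45 for METTL3 to METTL14 and from 0.797 to 0.967 for METTL3 to WTAP. Voom called 4156 genes and 5 members, RBM15B being the added one.

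The replicate numbers showed no visible pairing of the samples: deviations of same-numbered samples correlated at -0.12 and -0.02. With 2 si-circVAMP3 samples, whose deviations mirror each other, these values cannot tell whether the cultures were paired. With the replicate block 3144 genes, 2 members (WTAP and FTO) and 7 other pathway genes were called, ALKBH3 among them, the markers FGFR4 and COL3A1 were called too, VAMP3 stood at -0.27, VIRMA turned to 0.0053 and ALKBH7 to -0.10. As si-SCR replicate 3 has no same-numbered si-circVAMP3 sample, it adds nothing to the blocked differences. FTO (-0.64) and VIRMA (0.0053) had the same values in the fit without it.

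Signs turned for genes that were not called. Median centring gave VIRMA 0.01, ALKBH5 0.02 and HNRNPA2B1 0.0005, and quantile normalization gave ALKBH5 0.0001 and HNRNPC -0.03. Leaving out 1 sample gave METTL3 -0.03 to 0.16, VIRMA -0.05 to 0.03, ALKBH5 -0.04 to 0.04, HNRNPA2B1 -0.11 to 0.06, CBLL1 -0.02 to 0.10, ALKBH2 -0.02 to 0.34 and ALKBH7 -0.25 to 0.33. The cause was not tested.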
